A study of Homo sapiens with 8 samples.

Results

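The bromodomain inhibitor GNE-781 was examined in KMS11 cells, in the 4 KMS11 libraries of a series of 8. The members were taken by their cell line and treatment labels: the GNE-781 library and the combination library formed one side, and the DMSO and pomalidomide libraries the other. KMS11 is an established human multiple myeloma cell line, and open chromatin was read by ATAC-seq, in which a transposase cuts accessible DNA and leaves sequencing adapters there. All 4 cultures grew in RPMI medium with 5% serum and no antibiotics, and were harvested after 48 h. The DMSO culture received solvent, and the second control received pomalidomide at 200 nM. The third received GNE-781 at 40 nM, and the fourth received both agents at those doses. Each condition had 1 library, so GNE-781 was compared within pairs: against DMSO in cells without pomalidomide, and against pomalidomide alone in cells that also received it. The 2 pairs share no library, and nothing in the labels says whether the cultures were grown at the same time. P-values therefore rest on the disagreement of these libraries pooled over peaks, not on that of a peak's own 2 pairs. That disagreement may be technical. The series addresses what these agents do to chromatin accessibility in myeloma cells.

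GNE-781 occupies the bromodomain of p300 and its relative CBP, the pocket through which these coactivators hold acetylated histones. p300 and CBP acetylate histone H3 at active enhancers, and plasma cells depend on enhancers near genes such as IRF4 for their identity. KMS11 carries translocations that bring immunoglobulin enhancers next to MAF and to FGFR3 and NSD2. Pomalidomide binds cereblon, a subunit of a ubiquitin ligase, which then marks the lymphoid transcription factors IKZF1 and IKZF3 for breakdown. ATAC-seq reports how open a region is, not its acetylation or the activity of the gene nearby, and the gene named beside a peak is the nearest one in the authors' annotation.

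The deposited counts in peaks totalled 3786690 in the DMSO library, 4586400 with pomalidomide, 2981408 with GNE-781 and 5435673 with the combination. Promoter peaks, within 1000 bp of an annotated start, held 48.4% to 50.9% of them. Of 62528 peaks, 60898 had a mean of at least 2 CPM over the 4 libraries and were tested. CPM here is the count scaled to a library of fixed size, with TMM factors of 0.991 to 1.01. Of 7 defining plasma cell markers, 6 had a tested promoter peak: SDC1, CD38, SLAMF7, IRF4, PRDM1 and XBP1, each at a summed 18.3 to 57.2 CPM in every library, while no peak annotated to TNFRSF17 was tested. Of 18 defining markers of B, T or NK, myeloid, stromal, endothelial and erythroid cells, 5 had one, and the promoters of MS4A1, CD3D, CD3E, CD14 and LYZ had none. COL1A1, a collagen gene of stromal cells, was the highest of the 5, at 28.1 to 52.9 CPM.

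The windows below show promoter sequence under peaks on either side of the comparison. Each is the 250 bases before a RefSeq start (GRCh38.p14), written 5′ to 3′ on the gene's strand, and lies wholly or nearly wholly inside its peak. Capitals mark a match to an AP-1-like pattern (TGANTCA) in the PRSS2 window and GC boxes (GGGCGG, either strand) in the other windows. The pattern allows any base at its centre (N), so it is looser than the AP-1 site itself. The PRSS2 and SOCS3-DT windows belong to promoter peaks named by rule, and the RNF183 and VAV1 windows were chosen after their values were seen, as examples without and with a GC box.
PRSS2, lower with GNE-781, chr7:142770720-142770969, plus strand: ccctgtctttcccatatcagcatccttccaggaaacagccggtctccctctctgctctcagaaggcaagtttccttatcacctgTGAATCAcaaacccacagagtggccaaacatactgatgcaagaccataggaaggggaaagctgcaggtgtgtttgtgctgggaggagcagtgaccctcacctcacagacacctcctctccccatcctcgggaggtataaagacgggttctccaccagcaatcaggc
RNF183, lower, chr9:113298866-113299115, minus strand: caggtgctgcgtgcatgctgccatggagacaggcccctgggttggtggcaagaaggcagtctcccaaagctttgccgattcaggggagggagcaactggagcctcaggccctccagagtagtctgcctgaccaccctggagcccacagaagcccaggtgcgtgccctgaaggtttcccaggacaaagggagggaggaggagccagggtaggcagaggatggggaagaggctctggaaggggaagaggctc
SOCS3-DT, higher, chr17:78360198-78360447, plus strand: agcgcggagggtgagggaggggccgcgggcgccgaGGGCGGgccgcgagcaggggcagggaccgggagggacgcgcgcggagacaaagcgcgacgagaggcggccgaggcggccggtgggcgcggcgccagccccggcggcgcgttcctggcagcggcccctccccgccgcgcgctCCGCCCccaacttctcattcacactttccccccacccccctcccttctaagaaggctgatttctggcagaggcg
VAV1, higher, chr19:6772458-6772707, plus strand: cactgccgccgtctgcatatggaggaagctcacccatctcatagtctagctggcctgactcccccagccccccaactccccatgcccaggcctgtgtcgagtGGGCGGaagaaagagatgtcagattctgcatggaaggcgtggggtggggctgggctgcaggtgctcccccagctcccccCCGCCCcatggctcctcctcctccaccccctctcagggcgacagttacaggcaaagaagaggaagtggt
The PRSS2 window holds 1 AP-1-like match, with A at its centre, and the RNF183 window no GC box, while the SOCS3-DT and VAV1 windows hold 2 GC boxes each. The peak over the PRSS2 start is annotated to PRSS3P2, a trypsinogen pseudogene. Trypsinogen genes are near-identical copies, so reads there may be shared between them.

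Accessibility in KMS11 was lower with GNE-781 at more peaks than it was higher. With edgeR's quasi-likelihood test and pomalidomide as a block, 1351 of 60898 peaks (2.22%) passed an adjusted p of 0.05 by the Benjamini-Hochberg method: 1140 were lower (1.87%) and 211 higher (0.346%). The median log2 change was -0.96 among the falls, with a range of -2.43 to -0.42, and 1.19 among the rises, with a range of 0.50 to 2.44. A change of at least 2-fold was fitted at 500 falls and 140 rises. At an unadjusted p under 0.05 there were 8246 peaks, 67.3% of them lower. Chance would give 3045 if the p-values were calibrated, which a spread pooled over peaks does not ensure.

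These calls depend on how the spread between libraries is estimated. DESeq2 with the same design called 0 peaks and had 989 at an unadjusted p under 0.05, fewer than the 3045 of chance. Without the pomalidomide block edgeR also called 0, with 3224 at an unadjusted p under 0.05, near the same 3045. Scaling to the upper quartile gave 276 higher and 677 lower, so 29% of calls were rises in place of 15.6%.

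The 2 pairs showed the called direction together at 1128 of the 1140 falls and at 206 of the 211 rises, although 5 rises and 12 falls were called while the pairs disagreed. Both libraries with GNE-781 were below both libraries without it at 1029 falls and above both at 178 rises, a separation for which the test selects. The sides also did not overlap at 19940 of the 59547 peaks not called. Over all tested peaks the pairs had the same sign at 57.2%, with a Pearson correlation of 0.227 and a Spearman correlation of 0.217 across peaks, which are not independent replicates. At promoter peaks the share with the same sign was 53.5%, and outside promoters it was 58.5%.

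**Figure D1:**
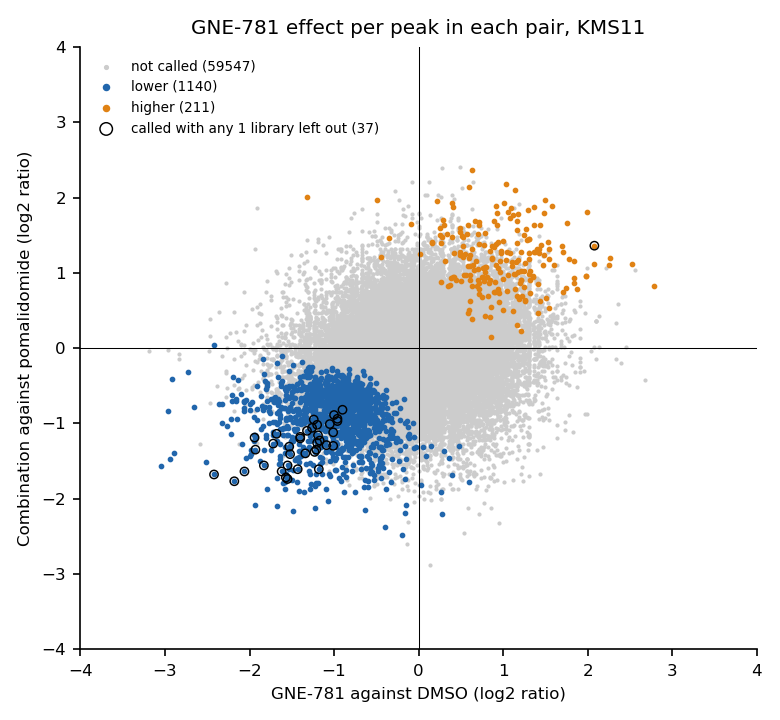
Log2 ratio of each tested KMS11 peak for GNE-781 against DMSO (horizontal) and for the combination against pomalidomide (vertical), with 1 library a side. Called falls (1140) sit mostly at lower left and called rises (211) mostly at upper right; circles mark the 37 peaks called whichever library was left out.

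Leaving out 1 KMS11 library at a time was possible in a fit of all 8 libraries with effects specific to each line, where the JJN3 libraries supply the spread and the remaining KMS11 pair alone gives the effect, so KMS11 is assumed to vary like JJN3. Peaks called fell to 737 without the DMSO library, 415 without pomalidomide, 376 without GNE-781 and 416 without the combination. Of the 1351 calls, 37 passed in all of these fits, 36 lower and 1 higher. Of the 37, 23 lay in a gene, 10 between genes and 4 at a promoter.

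The peak with the lowest p lay in RNF219-AS1, a long noncoding RNA gene (chr13:78116861-78117514, 61706 bp from the annotated start). Its level was 30.7 CPM with DMSO and 14.5 with pomalidomide, against 5.34 with GNE-781 and 4.2 with the combination. The log2 change over the 2 pairs was -2.14 ± 0.28 (SE from the spread pooled over peaks, edgeR adjusted p = 1.44e-09). Both GNE-781 libraries lay below both controls. A peak inside MANBA, the gene of lysosomal beta-mannosidase (chr4:102746036-102746856), stood at 52.6 and 63.9 CPM in the controls and at 19.7 and 27.6 CPM with GNE-781, without and with pomalidomide. Its log2 change was -1.29 ± 0.17 (edgeR adjusted p = 1.44e-09). In VOPP1, which encodes a vesicular membrane protein (chr7:55508271-55508926), the controls had 30.5 and 35.5 CPM and the GNE-781 libraries 11 and 11.3 CPM, with no overlap. The log2 change there was -1.57 ± 0.21 (edgeR adjusted p = 4.38e-09).

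The falls that held with any library left out included peaks at CCNE2 and FOXO3. CCNE2 encodes cyclin E2, which drives entry into S phase with CDK2. A peak 3725 bp from its start fell from 21.4 and 24.9 CPM to 7 and 7.12 CPM, and the 2 pairs gave log2 ratios of -1.55 and -1.74. The fitted change was -1.73 ± 0.25 (edgeR adjusted p = 8.47e-08). FOXO3, a forkhead transcription factor, had a peak in the gene (chr6:108673089-108673820) with a log2 change of -1.23 (edgeR adjusted p = 7.33e-07). CUL1, the scaffold of SCF ubiquitin ligases, had a peak at -1.73 (edgeR adjusted p = 3.1e-05). Peaks at the glycosyltransferase genes MGAT1 and ST6GAL1 changed by -2.14 and -1.36, at edgeR adjusted p = 5.67e-05 and 3.4e-05. FOXO3, CUL1, MGAT1 and ST6GAL1 were chosen for mention from the 37 after their values were seen.

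Some of the other leading falls were larger in level or less even between the pairs. In PXDN, the gene of the matrix enzyme peroxidasin (chr2:1656482-1658214), 117 and 93.7 CPM in the controls stood against 58.4 and 50.4 CPM, with log2 ratios of -1 and -0.89 in the 2 pairs. The GALNTL6 peak (chr4:172985536-172986636) had log2 ratios of -1.86 without and -0.64 with pomalidomide, so its size differed between the pairs while its direction did not. Its call, and those of the leading peaks at UMAD1 and RP11-317P15.4, did not pass in every fit without 1 library.

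**Figure D2:**
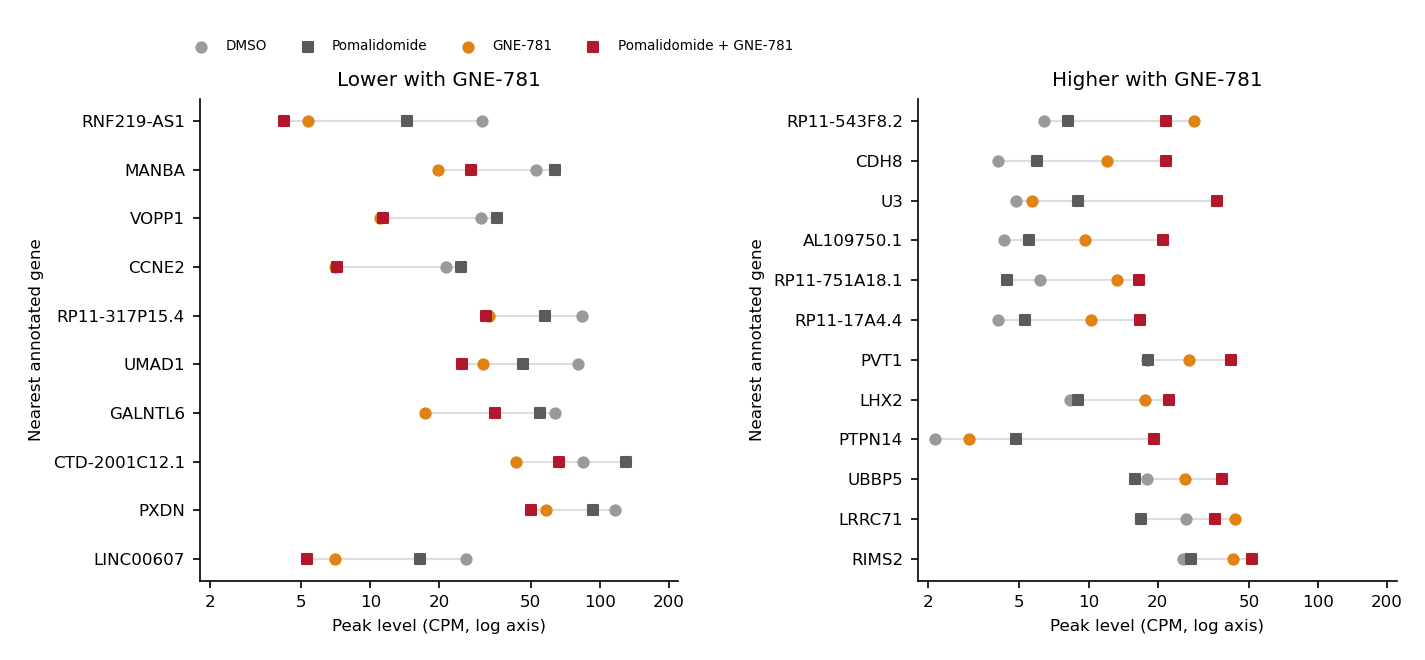
Level of 10 called falls (left) and 12 called rises (right) among those with the lowest p, in CPM on a log axis, with 1 point per KMS11 library. In every fall shown both GNE-781 libraries sit to the left of both controls, while at U3 and PTPN14 the GNE-781 library sits among the controls and the combination library stands apart.

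Among the rises, 1 of the 12 leading peaks held with any library left out. It lay in RP11-543F8.2 (chr10:8416108-8416812), at 6.41 CPM with DMSO, 8.15 with pomalidomide, 28.7 with GNE-781 and 21.7 with the combination. The log2 change was 1.74 ± 0.25 (edgeR adjusted p = 2.93e-08), with no overlap between the sides. A peak in CDH8, a cadherin gene (chr16:61820226-61820845), stood at 4.01 and 5.95 CPM against 12 and 21.7 CPM, at 1.76 ± 0.29 (edgeR adjusted p = 2.82e-06). A peak near LHX2, a LIM homeodomain factor (chr9:124054742-124055198), stood at 8.28 and 9.03 CPM against 17.7 and 22.5 CPM, at 1.22 ± 0.25. At CDH8 and LHX2, too, the sides did not overlap.

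Other rises rested on the combination library. The peak near U3 had 4.81, 9.03, 5.67 and 36.2 CPM with DMSO, pomalidomide, GNE-781 and the combination, and its log2 ratio was 0.22 without and 1.95 with pomalidomide. PTPN14, a phosphatase gene, gave 0.41 and 1.88 in the 2 pairs. Without the combination library, in the fit without the pomalidomide block, the changes at U3 and PTPN14 were -0.32 and -0.26. Rises were at weaker peaks than falls: the median level was 8.46 CPM among rises and 15.5 CPM among falls.

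Falls lay mostly away from promoters. Of 15732 promoter peaks, 77 were lower (0.489%) and 17 higher (0.108%), against 640 lower of 26035 peaks in genes (2.46%) and 423 lower of 19131 between genes (2.21%). The contrast was widest among well covered peaks. Between 20 and 40 CPM, 0.466% of 4717 promoter peaks and 6.64% of 4096 other peaks were lower, and at 40 CPM or more the shares were 0.272% of 4419 and 7.77% of 1210. Median log2 ratios of the other peaks between 20 and 40 CPM were -0.105 without and -0.12 with pomalidomide, and those of promoter peaks were 0.028 and 0.055. The JJN3 libraries gave medians of -0.06 for other peaks and -0.069 for promoter peaks at that level, so they did not separate the 2 kinds of peak. The difference in shares was not tested, since peaks of 1 library are not replicates.

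**Figure D3:**
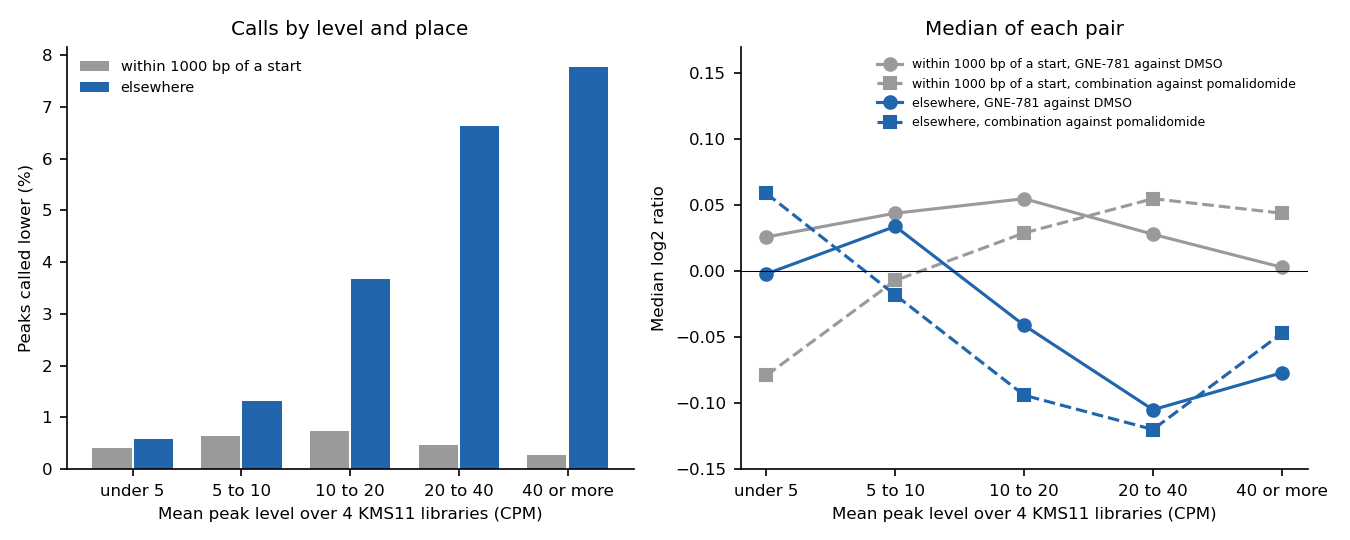
Left, percentage of KMS11 peaks called lower, by mean level and by place, promoter (grey) or elsewhere (blue). Right, median log2 ratio of each pair in the same classes; outside promoters the share of falls rises from 0.581% under 5 CPM to 7.77% at 40 CPM or more.

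Wide peaks and dense neighbourhoods held more falls. Outside promoters, peaks were split by width into 5 classes of equal size, and 6.28% of the widest class were lower, against 0.487% of the narrowest. Median level rose along these classes from 4.36 to 19.9 CPM, and when the same peaks were split by level instead the share lower went from 0.465% to 6.14%; the 2 properties were not told apart. When these peaks were joined into clusters across gaps of up to 10000 bp, the share lower was 1.81% for peaks standing alone, 2.63% in clusters of 2, 3.37% in clusters of 3 to 4, 4.15% in clusters of 5 to 7 and 6.08% in the 37 clusters of 8 or more. The median log2 change went from 0.012 to -0.131 over the same classes. Median level also rose along them, from 7.18 to 11.7 CPM, and its part in the trend was not tested.

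BCL2L1, the gene of the survival protein BCL-XL, had 4 of its 9 peaks lower (44.4%, against 1.87% of all peaks). They lay inside a cluster of 6 peaks (chr20:31691813-31713231) where 5 had a negative log2 change. The strongest of the 4, 14554 bp from the start, stood at 83.9, 80.4, 42.4 and 54.1 CPM with DMSO, pomalidomide, GNE-781 and the combination, at -0.76 ± 0.15 (edgeR adjusted p = 0.000252). The peak 17756 bp from the start had 24.6 and 20.1 CPM in the controls and 13.3 and 9.5 CPM with GNE-781, at -0.98 ± 0.23 (edgeR adjusted p = 0.0038). The peak at 29329 bp was uneven: 11.2 CPM with DMSO and 10.3 with GNE-781, but 22.7 with pomalidomide and 9.68 with the combination. At the promoter the 4 libraries lay between 94.4 and 106 CPM, and that peak was not called. Summed over all its peaks the gene did not pass the test, and none of the 4 calls held in every fit without 1 library.

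**Figure D4:**
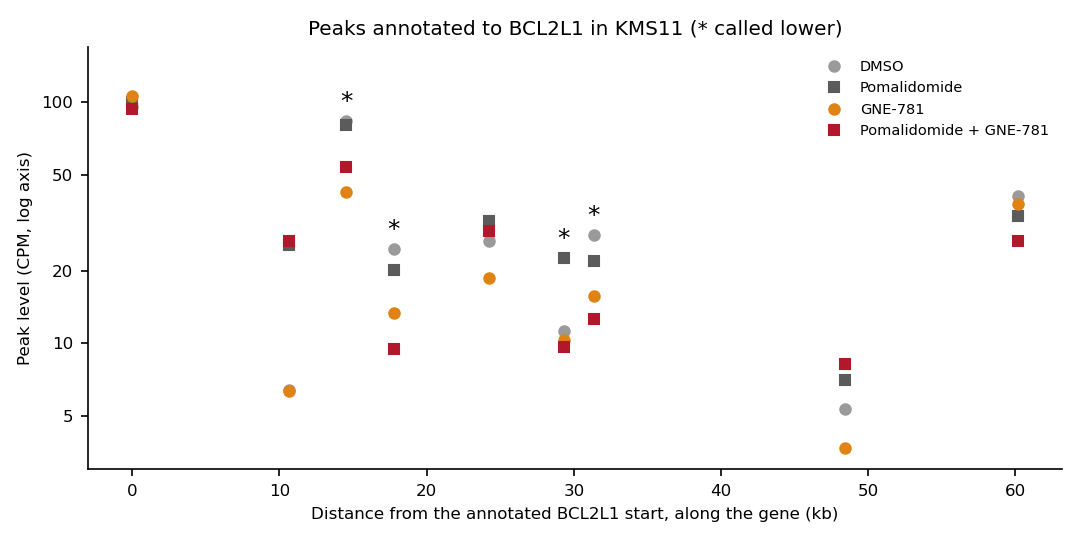
Level of the 9 tested peaks annotated to BCL2L1 in each KMS11 library, in CPM on a log axis, against distance from the annotated start in kb. Asterisks mark the 4 called falls, which lie between 14554 and 31364 bp, while the promoter peak lies between 94.4 and 106 CPM in all 4 libraries.

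PLA2G4A, which encodes a phospholipase that releases arachidonic acid, had 4 of 14 peaks lower (28.6%, against 1.87% of all peaks). The antisense gene MEF2C-AS1 had 4 of 17 (23.5%). AC018735.1 had 4 of 5 (80%), and RP11-818C3.1 had 3 of 10 (30%). Of these, the PLA2G4A peak at chr1:186768820-186769713 held with any library left out: 43.3 and 55.3 CPM in the controls against 18 and 28.5 CPM, at -1.07 ± 0.18 (edgeR adjusted p = 2.16e-06). No gene had 3 or more rises. BCL2L1, PLA2G4A, MEF2C-AS1, AC018735.1 and RP11-818C3.1 were picked as the genes with most called peaks, so high shares follow from the choice.

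Promoter falls with the lowest p were at CEP128, UFSP2, IFNG-AS1, INHBE and PRSS3P2. CEP128, a centriole protein gene (chr14:80959437-80960318), had 37.1 and 39.2 CPM in the controls and 16 and 17.3 CPM with GNE-781, at -1.19 ± 0.19 (edgeR adjusted p = 1.7e-06). UFSP2, the gene of a UFM1 protease (chr4:185412665-185413526), had 39 and 25.6 CPM against 16.7 and 10.4 CPM, at -1.26 ± 0.21. IFNG-AS1 (chr12:67988274-67989081) and INHBE, an activin subunit gene (chr12:57454845-57455402), changed by -1.33 ± 0.23 and -1.23 ± 0.21. These 4 held with any library left out. The PRSS3P2 peak, over the PRSS2 window printed above, changed by -0.75 ± 0.14 (edgeR adjusted p = 7.73e-05) and did not.

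Promoter rises with the lowest p included ARID1A, DPF1, GLIS2 and SOCS3. SOCS3, which encodes a feedback inhibitor of JAK signalling and shares its promoter with SOCS3-DT, had a peak (chr17:78359771-78361013) at 38.5, 50.9, 69 and 67.7 CPM with DMSO, pomalidomide, GNE-781 and the combination. Its change was 0.60 ± 0.15 (edgeR adjusted p = 0.00931). DPF1, a subunit gene of neuronal BAF complexes, had 24.3, 24.2, 57 and 28.3 CPM in that order, so its rise came mostly from the GNE-781 library. ARID1A, a BAF subunit gene, had 3.74, 6.39, 4.67 and 21.9 CPM at a small peak 361 bp from the start, and there the combination library stood apart. None of these 4 promoter rises held in every fit without 1 library.

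Promoter peaks called lower seldom overlapped a window made of the 250 bases before a RefSeq start and a short stretch after it. Overlaps, motifs and GC content here were taken over that whole window, while the sequences printed above show only the 250 bases. Such a window overlapped 9 of the 77 promoter falls (11.7%) and 7 of the 17 promoter rises (41.2%), against 60.8% of the 15638 promoter peaks not called. A promoter peak without such a window can still lie within 1000 bp of a RefSeq start, as at IFNG-AS1 and HERPUD1. In all, 21 RefSeq windows touched a peak called lower and 12 one called higher, windows under peaks annotated as in a gene or between genes included. Some windows share a peak and are not separate regions: several of the 12 lay under the single SOCS3 peak. A GC box was in 3 of the 21 and 7 of the 12, against 71.5% of 15599 windows under tested peaks and 44.9% of all 34943. The AP-1-like pattern, with any base at its centre, was in 4 of the 21 and 0 of the 12. It was in 4.49% of windows under tested peaks and 7.72% of all. RNF183, a ubiquitin ligase gene, had its window under a peak counted at 90, 144, 38 and 66 with DMSO, pomalidomide, GNE-781 and the combination (log2 change -1.21, edgeR adjusted p = 3.08e-05). VAV1, an exchange factor gene of blood cells, had counts of 66, 68, 90 and 133 in the same order (0.73, edgeR adjusted p = 0.028). Base composition of promoters moved with the DMSO pair: over 5 classes of windows by GC content, its median log2 ratio went from -0.03 in the most AT-rich class to 0.06 in the most GC-rich, and that of the other pair from 0.04 to 0.07. The part of base composition in the promoter calls was not tested.

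The 20 gene lists held 466 genes, of which 374 had a peak in the table and 372 a tested one. Among the called peaks of these lists, only those described below at SDC1 and TXNDC5 and the CCNE2 peak 3725 bp from its start held with any library left out. SDC1, the plasma cell surface proteoglycan CD138, had 8 tested peaks. The one 10475 bp from the start (chr2:20214260-20214619) stood at 27.8 and 23.8 CPM in the controls and 9.34 and 9.31 CPM with GNE-781, and held with any library left out. Its log2 change was -1.44 ± 0.23 (edgeR adjusted p = 1.37e-06), with both GNE-781 libraries below both controls. At the SDC1 promoter the levels were 57.2, 50.7, 45 and 34.3 CPM with DMSO, pomalidomide, GNE-781 and the combination, and that peak was not called (edgeR adjusted p = 0.11). Summed over its peaks, SDC1 went from 187 and 172 CPM to 139 and 120 CPM, a log2 change of -0.47 ± 0.12 (edgeR adjusted p = 0.0336). That gene-sum call was lost in each of the 4 fits without 1 library, with edgeR adjusted p from 0.0647 to 0.246. At the level of whole genes, with counts summed over a gene's peaks, 231 of 24932 genes were called (0.927%), 205 lower (0.822%) and 26 higher (0.104%). The lowest p among gene sums belonged to RP4-655L22.5, at -1.09 ± 0.17, and RNU6-506P, at -0.81 ± 0.14, and RPL4P2 was among the rises, at 0.82 ± 0.18.

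Among plasma cell surface markers, 3 of 56 peaks were lower (5.36%, against 1.87% of all peaks) and 0 higher, with a median log2 change of -0.18 against 0 over all peaks. Beside SDC1 these were at CD47, a surface protein that restrains phagocytosis, at -0.85 ± 0.17, and FCRL5, an immunoglobulin receptor of late B cells, at -0.69 ± 0.17. Regulators of plasma cells and myeloma had 5 of 167 peaks lower (2.99%) and 0 higher. POU2AF1, a B-cell coactivator of octamer factors, had 2: one stood at 9.62, 8.59, 2.67 and 1.64 CPM with DMSO, pomalidomide, GNE-781 and the combination, at -2.13 ± 0.42 (edgeR adjusted p = 0.000223). Distal peaks of PRDM1, the plasma cell repressor BLIMP1, and of MYB changed by -0.63 ± 0.17 and -1.13 ± 0.32, and a peak near an annotated start of ETV6 by -1.13 ± 0.30. Summed over its 8 peaks, PRDM1 changed by -0.3 ± 0.12 and was not called (edgeR adjusted p = 0.286), and its promoter peaks were not called. The share of 2.99% is near the 1.87% of all peaks.

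IRF4 and MAF were not among the called genes. IRF4, the factor that plasma cells and myeloma depend on, had 59.9, 67, 75.3 and 60.2 CPM summed over 3 peaks with DMSO, pomalidomide, GNE-781 and the combination, a log2 change of 0.07 ± 0.14. MAF, driven by a translocated enhancer in this line, had 63.4, 62.8, 63.7 and 68.8 CPM, also 0.07 ± 0.14. FGFR3, NSD2 (WHSC1 in the annotation), CCND2 and ITGB7, the last 2 being known MAF targets, had log2 changes of -0.10 ± 0.16, 0.08 ± 0.14, 0.08 ± 0.27 and -0.11 ± 0.14, none called. XBP1 had 0.26 ± 0.19 and CREBBP, the gene of CBP, 0.06 ± 0.19, and neither was called. The sides overlapped at IRF4, and at MAF both GNE-781 libraries were slightly above both controls. In the list of translocation and MAF target genes, 3 of 43 peaks were lower (6.98%, against 1.87% of all peaks) and 1 higher. All were at DEPTOR, an inhibitor of mTOR. The falls were at -1.04 ± 0.27, -1.08 ± 0.31 and -0.76 ± 0.22 and the rise at 0.98 ± 0.23, so accessibility within this gene moved both ways.

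Genes of secretion, protein folding and the unfolded protein response had 5 of 81 peaks lower (6.17%, against 1.87% of all peaks) and 0 higher. TXNDC5, a disulfide isomerase gene, had a peak 1752 bp from its start (chr6:7897840-7898490) at 35.3 and 24.9 CPM in the controls and 15.3 and 7.85 CPM with GNE-781, which held with any library left out. Its log2 change was -1.43 ± 0.22 (edgeR adjusted p = 3.83e-07). SEC24D, a coat subunit of vesicles leaving the endoplasmic reticulum, had a peak at -1.40 ± 0.24 (edgeR adjusted p = 6.51e-06). SEL1L and HERPUD1, which serve degradation of misfolded proteins, changed at 1 peak each by -0.93 ± 0.20 and -1 ± 0.26, and ERN1, the gene of the stress sensor IRE1, by -1.24 ± 0.35. The median over the 81 peaks was -0.10.

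Cell cycle genes had 5 of 86 peaks lower (5.81%, against 1.87% of all peaks) and 0 higher. A second CCNE2 peak, 9030 bp from the start, had 15, 7.49, 5 and 2.92 CPM with DMSO, pomalidomide, GNE-781 and the combination, at -1.47 ± 0.35. CDK6, the kinase that works with D cyclins, had 2 falls, at -1.07 ± 0.22 and -0.71 ± 0.18. The peak annotated to CCND1 was called at -1.70 ± 0.43, but its levels were 16.3, 1.76, 2.67 and 1.83 CPM in the same order: the DMSO library alone was high, and the ratio with pomalidomide was 0.04.

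NF-kB genes had 4 of 69 peaks lower (5.8%, against 1.87% of all peaks), 2 in NFKB1 (-0.65 ± 0.18 and -1.39 ± 0.41) and 2 in TNIP1, an inhibitor of the pathway (-0.81 ± 0.23 and -0.79 ± 0.23). Summed over its 8 peaks, NFKB1 went from 171 and 169 CPM to 110 and 122 CPM, at -0.55 ± 0.13, a call lost in each of the 4 fits without 1 library (edgeR adjusted p from 0.0641 to 0.171). The interferon list had 3 of 60 lower (5%, against the same 1.87%), at SP100 (-1.11 ± 0.25) and at 2 peaks of IRF2 (-0.74 ± 0.18 and -0.69 ± 0.19), both genes of the interferon response. The BCL2 family had 4 of 72 lower (5.56%, against the same 1.87%), all at BCL2L1. In the IL-6, JAK and STAT3 list, SOCS3 rose and a peak of PIM1, a kinase gene induced by STAT3, changed by -0.86 ± 0.20. These were the calls among 56 peaks (3.57%, against 2.22% of all peaks called in either direction). In the AP-1 and BATF list, ATF2 had a fall (-1.79 ± 0.42) and BATF2 a promoter rise (1.02 ± 0.30) out of 61 peaks (3.28% called). The ETS and RUNX list had a fall in RUNX1 (-0.63 ± 0.17) and a rise in ETV1 (1.03 ± 0.30) out of 112 (1.79% called).

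The p300, CBP and BET cofactor list had 1 of 59 peaks lower (1.69%, against 1.87% of all peaks). That peak lay near CITED2, the gene of a protein that binds p300 (-0.76 ± 0.23). Adhesion and homing genes had 2 of 70 lower (2.86%, against the same 1.87%), at CADM1 (-1.45 ± 0.41) and near CXCR5 (-0.73 ± 0.22). Among the lists of other cell types, genes of B cells before the plasma stage had 3 of 51 lower (5.88%, against 1.87% of all peaks): BANK1, a B-cell scaffold gene, at -1.35 ± 0.23 and -1.31 ± 0.37, and a distal peak of BCL6 at -0.77 ± 0.19. T and NK genes had 1 of 56 (1.79%), in CD247 (-0.95 ± 0.21), and endothelial genes 1 of 32 (3.12%), near KDR (-1.16 ± 0.22). Myeloid, stromal, erythroid and ribosomal protein genes had 0 of 15, 29, 12 and 69 peaks called by edgeR. The surface marker list, its called peaks included, summed to 1009, 918.9, 845.6 and 763.3 CPM with DMSO, pomalidomide, GNE-781 and the combination. The sum of the B-cell list was 665.2, 655.4, 603.7 and 603.9 CPM in the same order. Some other lists also fell and some did not. Ribosomal protein genes summed to 1884, 1875, 1946 and 1952 CPM, and the IL-6, JAK and STAT3 list to 1252, 1408, 1424 and 1438 CPM.

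In JJN3, a second myeloma line given the same treatments with 1 library each, the same contrast had the KMS11 sign at 745 of 1135 falls tested there (65.6%) and at 157 of 210 rises (74.8%), against 55.6% of peaks not called in KMS11. The median JJN3 log2 change was -0.22 over the falls and 0.32 over the rises, compared with -0.96 and 1.19 in KMS11, values that the selection in KMS11 enlarges. Of the 36 falls that held with any library left out, 26 had a negative JJN3 change, and in 17 both JJN3 pairs were negative. VOPP1 was among these, with a JJN3 change of -1.14. Both JJN3 pairs had the KMS11 sign at 492 of all 1140 falls and at 19029 of the 59547 peaks not called. The fits without 1 library take their spread from JJN3, so JJN3 agreement at the falls that held is not independent of their choice. At VOPP1 the JJN3 levels were 42.6, 23, 22 and 9.13 CPM with DMSO, pomalidomide, GNE-781 and the combination. The RP11-543F8.2 rise had a JJN3 change of -0.14, and its JJN3 levels were at most 4.48 CPM.

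**Figure D5:**
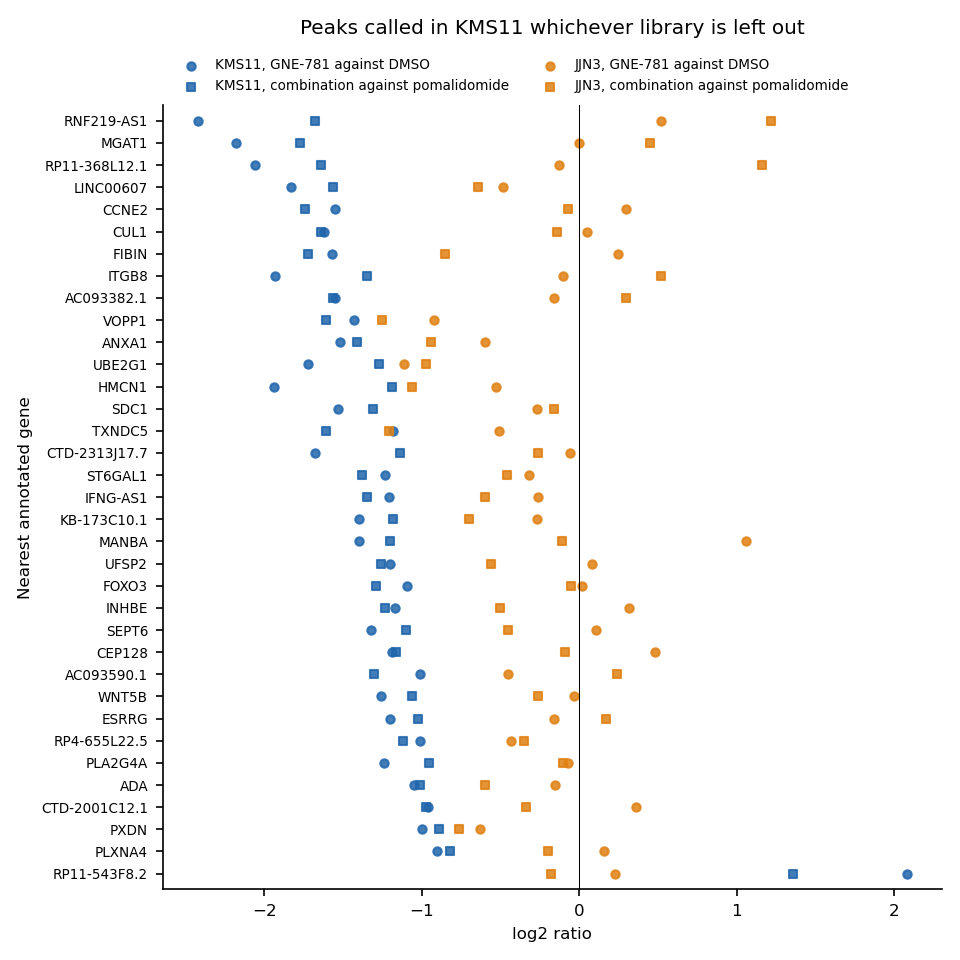
Log2 ratio of each pair in KMS11 (blue) and JJN3 (orange) at 35 of the 37 peaks called in KMS11 whichever library was left out, with 1 library a side. All KMS11 points of the 34 falls shown lie below 0, and both JJN3 points do so at 16 of them.

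A direct test of KMS11 minus JJN3 in the 8-library fit called 0 of 62234 peaks with edgeR (0%; 4476 at an unadjusted p under 0.05) and 0 with DESeq2 (478). The lowest adjusted p among the called falls was 0.0828, at the CCNE2 peak, where JJN3 had 22.7, 15.7, 28.3 and 14.9 CPM with DMSO, pomalidomide, GNE-781 and the combination. With a stricter filter, a mean of at least 5 CPM, the difference was called at 10 peaks, all lower in KMS11 relative to JJN3. CCNE2 was 1 of the 10, at a difference of -1.82 ± 0.37 (edgeR adjusted p = 0.0316), and RNF219-AS1 another, at -3.49 ± 0.73 (edgeR adjusted p = 0.0428). JJN3 levels at the RNF219-AS1 peak were 1.47, 1.92, 2.52 and 5.77 CPM, so few counts stand behind that value.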

How the data were processed

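ATAC-seq was made in 4 KMS11 and 4 JJN3 libraries, with 1 library per line and treatment. The authors deposited 1 table of raw counts per peak, in whole numbers and not normalized, for a joint peak set. The table's name gives MACS2 and a q of 0.01, and the table names the nearest transcript of each peak. Per the submitters' processing notes, reads were handled with Bowtie2 2.3.5.1 and MACS2 2.1.1.20160309, Trim Galore 0.6.4, cutadapt 2.5 and SAMtools 1.10 on GRCh38. The sources used here do not give the counting unit (read or fragment), the treatment of duplicates or the shift for the transposase. Duplicates, if counted, would make the counts look more precise than they are, and a joint peak set favours deeper libraries.

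The 4 KMS11 libraries were fitted in R 4.3.3 with edgeR 4.0.16 (quasi-likelihood, TMM scaling by trimmed means) with pomalidomide and GNE-781 terms, which leaves 1 residual degree of freedom per peak. The prior degrees of freedom were infinite, so the spread is pooled over all peaks, and the common biological coefficient of variation was 0.102. Peaks with a mean CPM under 2 (1630) were left out. Tests were two-sided, with Benjamini-Hochberg adjustment over all 60898 peaks and a threshold of 0.05. Errors are standard errors of the log2 change, taken from the change and its F statistic. Ratios of a pair used a prior count of 2 and have no replicate check. A fit of all 8 libraries with line-specific effects (2 residual degrees of freedom) gave the difference between lines and the fits without 1 library. limma 3.58.1 and DESeq2 1.42.0 were alternatives.

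Named peaks followed a rule: the 12 lowest p in each direction with both pairs in that direction (1 peak per gene), the 5 lowest at promoters, the 5 genes with most called peaks (at least 3) or the lowest p as gene sums, called peaks of the gene lists, and a set of myeloma genes whatever their values. The members, lists and rule were chosen with earlier results of these data known. Genes were matched to RefSeq by symbol or synonym (17953 of 25165 gene IDs, 1212 under another symbol). Figures were drawn with matplotlib. Some genes that the rule names are not reported here, and they are left out of the figures.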

Additional observations from a re-analysis of the deposited data

How the results depend on the processing

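With 1 library per condition, the calls rest on a spread pooled over peaks, and depth limits low peaks most. Against 1351 calls (1140 lower, 211 higher), 0 peaks were called with DESeq2 in both directions and 0 without the pomalidomide term, the fit with no replicate block; 989 and 3224 had an unadjusted p under 0.05. The gene sums, 231 calls, also gave 0 in both of these fits. Other scalings, filters and tests gave 953 to 1591 calls, and upper quartile scaling gave 677 lower calls, with the median of all peaks at 0.07. Of the alternatives, centring each chromosome on its median (1591 calls, 1325 of them shared) was chosen after seeing the data: the chromosome medians of the DMSO pair ran from -0.16 on chromosome 4 to 0.24 on chromosome 19, and those of the other pair from -0.07 to 0.07. Leaving out 1 library in the 8-library fit gave 376 to 737 calls (299 to 574 lower, 45 to 163 higher), and without the pomalidomide term 0 to 5 (0 to 5 lower, 0 higher). Gene sums without 1 library gave 86 to 208 calls and from promoter peaks alone 48. The line difference, 0 calls, gave 10 with the filter at 5 CPM and 0 to 5 without 1 library. Signs turned for gene sums restricted to promoters at FGFR3 (0.107) and TXNDC5 (0.117), and outside promoters at MAF (-0.275), IRF4 (-0.15) and CREBBP (-0.746). Without 1 library, log2 changes crossed 0 for gene sums at IRF4 (-0.156 to 0.329), ITGB7 (-0.355 to 0.181), FGFR3 (-0.225 to 0.039), WHSC1 (-0.009 to 0.156), CREBBP (-0.274 to 0.324) and CCND2 (-0.038 to 0.174). With fits lacking the pomalidomide term included, they also crossed 0 at peaks of CCND1 (-2.924 to 0.274) and U3 (-0.319 to 2.349). The same was so at PTPN14 (-0.262 to 2.547), ARID1A (-0.146 to 2.078) and PLA2G4A (chr1:186845564-186846205, -1.522 to 0.224). This PLA2G4A peak is not the one that held with any library left out. In the 8-library fits without 1 library, which keep that term, CCND1 still crossed 0 (-2.59 to 0.06) and the others did not. Ranges there were -1.05 to -0.47 at PLA2G4A, 0.24 to 2.01 at U3, 0.48 to 1.99 at PTPN14 and 0.32 to 1.78 at ARID1A. The cause of these changes was not tested.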
